A study of Mus musculus with 34 samples.

Results

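Metallothioneins are small, cysteine-rich proteins that bind zinc, copper and cadmium in the cell. The 4 genes described here were Mt1 and Mt2, which encode metallothioneins, Mtf1, which encodes their zinc-sensing transcription factor, and Slc30a1, which encodes the plasma-membrane zinc exporter ZnT1. They were taken by symbol from the table that pairs probe sets with genes, and are 4 of the 8252 genes that table names from a probe set of 1 gene. Each was read by 1 probe set. The values are microarray signals on a linear scale, scaled so that the trimmed mean of every array lay near 500. Signals of different probe sets cannot be compared as amounts of RNA, so RNA levels are compared only within a gene. Where a member is ranked among the probe sets of an array, the rank describes brightness alone.

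The cells were mouse bone-marrow-derived macrophages, grown from marrow for 7 days in CSF-1 (macrophage colony-stimulating factor) and rested for 1 hour in complete DMEM. IL-10-/-, IL-6-/- and wild-type cells received LPS (bacterial lipopolysaccharide) at 100 ng/ml for 45 or 180 min, with IL-10 at 10 ng/ml, with IL-6 at 2 ng/ml or alone. IL-6 was added at 45 min only, and all cytokine groups also received LPS. Each such group had 2 arrays, called biological replicates in the titles, except IL-6-/- with LPS alone, which had 1 array at each time. A further 4 arrays held resting cells, for which the labels name L-cell conditioned medium as the source of CSF-1 and no genotype. These make 16 groups of 32 arrays, and 2 more arrays entered no group because their labels leave the genotype or the time unclear. No label says whether replicates came from separate mice, so the p-values cover only the spread seen among arrays. For many cytokine arrays at 45 min the treatment field names LPS alone, and the title gives the cytokine.

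In resting cells zinc-free MTF1 is largely inactive. Zinc entering the cytosol binds MTF1, which moves to the nucleus and occupies metal response elements, short DNA motifs in the promoters of metallothionein genes and Slc30a1. Metallothionein genes are also known to respond to glucocorticoids, oxidative stress and cytokines that signal through STAT3, the transcription factor that both the IL-10 and the IL-6 receptor activate. In macrophages, zinc handling is part of the response to bacterial products.

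The promoters of Mt1, Mt2 and Slc30a1 are shown because they hold the motif that ties the 4 genes together. Each runs 5′ to 3′ on the plus strand from 250 bases before to 50 bases after the start that RefSeq lists, on build GRCm38.p6. Capitals mark every match to the core of the metal response element, TGCACNC or TGCGCNC, on either strand. The windows are chr8:94178839-94179138 for Mt1, chr8:94172368-94172667 for Mt2 and chr1:191906531-191906830 for Slc30a1.
Mt1: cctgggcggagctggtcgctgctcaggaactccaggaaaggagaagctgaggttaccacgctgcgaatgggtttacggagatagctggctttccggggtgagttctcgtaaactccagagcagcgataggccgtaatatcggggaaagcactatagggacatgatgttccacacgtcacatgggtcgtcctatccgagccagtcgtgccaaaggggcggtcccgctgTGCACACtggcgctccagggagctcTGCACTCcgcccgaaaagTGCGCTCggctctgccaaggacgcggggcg
Mt2: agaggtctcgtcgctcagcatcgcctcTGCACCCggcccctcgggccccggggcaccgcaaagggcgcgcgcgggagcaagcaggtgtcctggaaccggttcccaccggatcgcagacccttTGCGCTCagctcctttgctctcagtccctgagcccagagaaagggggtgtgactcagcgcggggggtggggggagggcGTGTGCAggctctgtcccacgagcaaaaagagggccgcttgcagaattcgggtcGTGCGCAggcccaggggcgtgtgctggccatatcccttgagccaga
Slc30a1: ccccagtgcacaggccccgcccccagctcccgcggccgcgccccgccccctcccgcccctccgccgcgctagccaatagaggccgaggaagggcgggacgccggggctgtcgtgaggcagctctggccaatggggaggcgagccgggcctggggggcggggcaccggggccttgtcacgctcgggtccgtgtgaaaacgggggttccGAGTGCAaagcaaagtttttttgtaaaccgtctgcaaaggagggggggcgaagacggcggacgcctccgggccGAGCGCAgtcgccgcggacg
Mt2 had 4 matches, starting at positions -223, -128, -50 and 5 from the listed start. Mt1 had 3 matches, at -23, 3 and 21, and Slc30a1 had 2, at -43 and 31. The listed start lies 206 bases inside the first annotated base of Mt1 and 84 bases inside that of Slc30a1, so the window may not be centred on the start in use. Of 32817 mouse promoters of the same length, 25.7% held at least 1 match, 7.12% at least 2, 1.97% at least 3 and 0.52% at least 4. The Mtf1 promoter (chr4:124802299-124802598, plus strand) held none. The letters of a palindromic STAT element, TTCNNNGAA, occurred in none of the 4 windows, against 8.29% of all promoters. A glucocorticoid element core, ACANNNTGT, occurred once in Mt1, at -92, and in 6.85% of all promoters. An antioxidant element core, TGACNNNGC, occurred once each in Mt2, at -79, and Slc30a1, at -82, and in 12.38% of all promoters. Only these windows were searched, and a match is a run of letters, not a shown binding site.

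Mt1 and Mt2 were read strongly throughout, while Mtf1 and Slc30a1 were dim. Mt1 ranged over 3283 to 34628 and Mt2 over 1640.2 to 69689 on the 32 grouped arrays. With LPS plus IL-10 at 180 min, only 15 to 21 probe sets of an array read above Mt1 and 1 to 4 above Mt2. Mtf1 ranged over 69.2 to 478, with 23 of 32 arrays at or above 200. Slc30a1 ranged over 39.7 to 209, with 1 of 32 arrays at or above 200. A probe set was tested if it reached 200 on at least 2 arrays, which left 8224 probe sets and 3 of the 4 members. For Slc30a1, which did not pass, changes come from the fit without that filter. Changes below are log2 differences of (signal + 50) ± standard error from limma, with p-values adjusted over all probe sets tested by the Benjamini-Hochberg method and a threshold of 0.05.

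**Figure D1:**
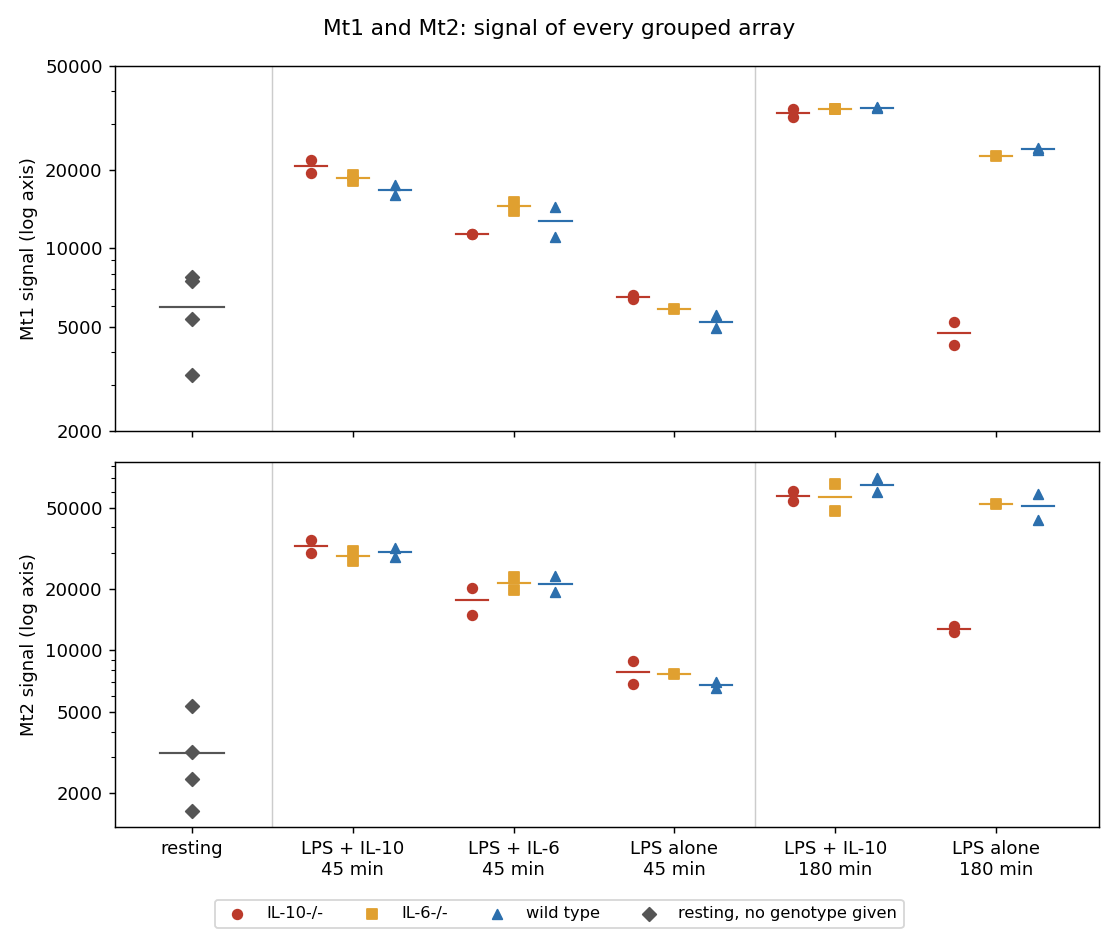
Signal of Mt1 (upper) and Mt2 (lower) on each grouped array, on a log axis, by treatment and time and, within each, by genotype; points are arrays and short lines are group means. At 45 min both genes read highest with IL-10, lower with IL-6 and lowest with LPS alone in all 3 genotypes, and at 180 min IL-10-/- with LPS alone stands far below the rest.

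In wild-type cells LPS alone left Mt1 near its resting level at 45 min and raised it by 180 min, whereas Mt2 was already higher at 45 min. Mt1 read 7769, 5359, 3283 and 7485 on the resting arrays, 5543 and 4948 at 45 min and 24162 and 23704 at 180 min. The early pair lay inside the resting range and the late pair lay far above it. The share of probe sets whose late pair lay above the resting range is not given here. Mt2 read 5335, 2344, 1640.2 and 3189.5 on the resting arrays, 6522.5 and 7013 at 45 min and 43750.5 and 58262 at 180 min. For Mt2 the arrays at each time lay above all arrays of the time before, as did 16.6% of probe sets at 45 min and 19.5% at 180 min.

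At 45 min, 1 of the 3 tested members had changed against resting cells, where 16.7% of all probe sets had. Mt2 was higher by 1.23 ± 0.27 (2.35-fold, adjusted p = 0.00265), and Mt1 differed by -0.11 ± 0.22 (adjusted p = 0.776). At 180 min, 2 of the 3 had changed against resting cells, where 33.8% of all probe sets had. Mt1 was higher by 2.07 ± 0.22 (4.20-fold, adjusted p = 4.62e-08) and Mt2 by 4.12 ± 0.27 (adjusted p = 1.34e-11). Only 44 probe sets rose more than Mt2 there, and 248 rose more than Mt1.

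These comparisons with resting cells also carry the difference in CSF-1 source and the missing genotype. The summed signal of 11 stromal marker genes was 9490.1 to 18113 on stimulated arrays and 1401 to 3809.8 on resting arrays. All 11 rose at 45 and at 180 min, and 3 of them read below 200 on every resting array. Macrophage markers summed to 172331 to 237129 on stimulated arrays and 172813 to 221157 on resting arrays, and none of the 12 read below 200 on every array of a group. Lymphocyte markers summed to 2255.1 to 3817.4 on resting arrays, 1013.8 to 2208.9 at 45 min and 680.8 to 1071.6 at 180 min. Sums of neutrophil, of erythroid and mast cell and of dendritic cell markers overlapped between resting and stimulated arrays. The part of the stromal or lymphocyte signal in the metallothionein change was not tested. In bulk RNA fewer cells of a type and less RNA per cell cannot be told apart. Among stimulated arrays the stromal sum differed by genotype, at 15787 to 18031 in IL-10-/-, 9490.1 to 11133 in IL-6-/- and 13719 to 18113 in wild type.

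Between the LPS times, which leaves the resting cells out, neither metallothionein gene passed the test in IL-10-/- cells, and both rose in IL-6-/- and wild-type cells. In IL-10-/- cells Mt1 read 4271 and 5237 at 180 min and 6407 and 6609.7 at 45 min. Mt2 read 12368 and 13110.1 at 180 min and 6829 and 8913 at 45 min. The late arrays thus lay below the early ones for Mt1, as did 31.7% of probe sets, and above them for Mt2, as did 31.8%. None of the 3 tested members passed, where 17.1% of all probe sets did. Mt1 differed by -0.46 ± 0.25 (adjusted p = 0.232) and Mt2 by 0.70 ± 0.31 (adjusted p = 0.133). With replicate number added to the limma fit both passed (adjusted p = 0.0331 for Mt1 and 0.0477 for Mt2).

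In IL-6-/- cells, with 1 array at each time, Mt1 read 22648 at 180 min and 5862 at 45 min. Mt2 read 52189 at 180 min and 7688 at 45 min on the same arrays. The lone arrays lay close to the wild-type pairs at both times. There 2 of the 3 tested members had changed, where 7.03% of all probe sets had. Mt1 rose by 1.94 ± 0.35 (adjusted p = 0.00063) and Mt2 by 2.76 ± 0.44 (adjusted p = 0.000172), with each lone array assumed to vary as the arrays of other groups did.

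In wild type 2 of the 3 tested members had changed between the arrays given above, where 13.9% of all probe sets had. Mt1 rose by 2.18 ± 0.25 (4.54-fold, adjusted p = 5.61e-07) and Mt2 by 2.89 ± 0.31 (7.42-fold, adjusted p = 2.5e-07). The median of all probe sets in that comparison was -0.14 as deposited. Over the alternative fits of the closing section, quantile normalization among them, the rise was 2.07 to 2.19 for Mt1 and 2.65 to 2.90 for Mt2.

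**Figure D2:**
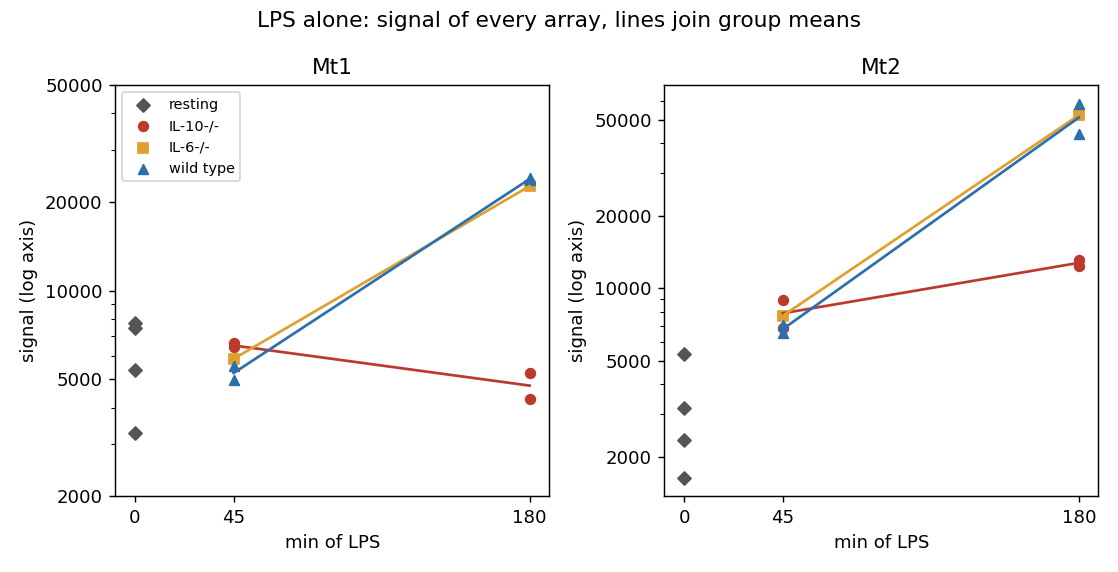
Signal of Mt1 (left) and Mt2 (right) on a log axis against minutes of LPS alone; points are arrays, lines join group means, and 0 min is the resting cells of unstated genotype. IL-10-/- arrays stay between 4271 and 6609.7 for Mt1 and reach at most 13110.1 for Mt2, while IL-6-/- and wild type climb together by 180 min.

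The time change itself differed between genotypes. IL-10-/- minus wild type, it was -2.64 ± 0.35 for Mt1 (adjusted p = 7.43e-05) and -2.19 ± 0.44 for Mt2 (adjusted p = 0.0108), where 1.12% of probe sets passed. The Mt2 call was lost without wild-type LPS 45 min replicate 1, wild-type LPS 180 min replicate 2, IL-10-/- LPS 45 min replicate 2 or IL-10-/- LPS 180 min replicate 1 (log2 differences of -2.15 to -1.98, adjusted p up to 0.0953).

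Set directly against wild type under LPS alone at 180 min, IL-10-/- cells had far less of both transcripts. Mt1 read 4271 and 5237 in IL-10-/- against 24162 and 23704 in wild type. Mt2 read 12368 and 13110.1 in IL-10-/- against 43750.5 and 58262 in wild type. Neither gene's arrays overlapped between the genotypes, which was so for 20% of all probe sets in that direction. Mt1 differed by -2.33 ± 0.25 (0.199 of the wild-type level, adjusted p = 1.14e-06) and Mt2 by -1.98 ± 0.31 (0.253 of it, adjusted p = 0.00027). These are 2 of the 3 tested members, where 2.87% of all probe sets passed.

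At 45 min the same genotypes did not differ past the threshold. IL-10-/- minus wild type was 0.31 ± 0.25 for Mt1 (95% interval -0.20 to 0.82, adjusted p = 0.796) and 0.20 ± 0.31 for Mt2 (-0.44 to 0.85, adjusted p = 0.893). None of the 3 tested members passed, where 0.377% of all probe sets did. IL-6-/- cells under LPS alone did not differ past the threshold from wild type either. Mt1 differed by 0.16 ± 0.30 at 45 min and -0.08 ± 0.30 at 180 min, and Mt2 by 0.18 ± 0.38 and 0.05 ± 0.38 at those times. None of the 3 tested members passed at either time, where 0% of all probe sets passed at 45 min and 0.182% at 180 min.

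The probe sets of the deleted genes do not check the genotypes here. Il10 read 1512 to 10596 on IL-10-/- arrays, and Il6 read 427.5 to 8400.2 on IL-6-/- arrays.

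With a cytokine added for 45 min both metallothionein genes read higher than with LPS alone in all 3 genotypes, and higher with IL-10 than with IL-6. In IL-10-/- cells Mt1 read 21831 and 19430.8 with IL-10, 11337 and 11388 with IL-6 and 6407 and 6609.7 with LPS alone. In IL-6-/- cells it read 19069.9 and 18158 with IL-10, 15105 and 13946 with IL-6 and 5862 with LPS alone. In wild type it read 17479.8 and 16038 with IL-10, 11039 and 14453 with IL-6 and 5543 and 4948 with LPS alone. The order of the arms was the same in each genotype, and no arm overlapped another within it.

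Mt2 followed the same order. In IL-10-/- cells it read 29915 and 34733 with IL-10, 14881 and 20285 with IL-6 and 6829 and 8913 with LPS alone. In IL-6-/- cells it read 27253 and 30515 with IL-10, 19649 and 23003 with IL-6 and 7688 with LPS alone. In wild type it read 31819.7 and 28532 with IL-10, 19295 and 23057 with IL-6 and 6522.5 and 7013 with LPS alone.

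Taken over genotypes, the 6 arrays with IL-10, the 6 with IL-6 and the 5 with LPS alone formed 3 separate bands for each gene. Mt1 spanned 16038 to 21831 with IL-10, 11039 to 15105 with IL-6 and 4948 to 6609.7 with LPS alone. Mt2 spanned 27253 to 34733 with IL-10, 14881 to 23057 with IL-6 and 6522.5 to 8913 with LPS alone. Only 14 of 8224 probe sets, or 0.17%, showed this order without overlap, and Mt1 and Mt2 were 2 of them. The IL-10 arm lay wholly above LPS alone for 0.924% of probe sets, the IL-6 arm above LPS alone for 0.754%, and the IL-10 arm above the IL-6 arm for 0.268%.

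In the mean over the genotypes, added IL-10 at 45 min changed 2 of the 3 tested members, where 1.03% of all probe sets changed. Mt1 rose by 1.66 ± 0.16 (3.16-fold, adjusted p = 9.18e-08) and Mt2 by 2.03 ± 0.20 (4.08-fold, adjusted p = 1.63e-07). Of all probe sets, 15 rose more than Mt1 and 9 more than Mt2. The Mt1 change was nearly equal in the genotypes, at 1.65 in IL-10-/- (adjusted p = 0.000418), 1.66 in IL-6-/- (0.00805) and 1.67 in wild type (0.000505). For Mt2 it was 2.04 in IL-10-/- (adjusted p = 0.000571), 1.90 in IL-6-/- (0.0218) and 2.15 in wild type (0.000408). Both members passed within each genotype, where 0.547%, 0.328% and 0.401% of all probe sets passed in IL-10-/-, IL-6-/- and wild type. In IL-6-/- both calls were lost without LPS plus IL-10 replicate 1 or 2, with adjusted p of 0.0834 without replicate 1 and 0.0512 without replicate 2 for Mt1, and of 0.0954 without replicate 1 and 0.138 without replicate 2 for Mt2.

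The difference in the IL-10 change between IL-10-/- and wild type was -0.01 for Mt1 (95% interval -0.74 to 0.71) and -0.11 for Mt2 (-1.02 to 0.81). Under LPS plus IL-10 at 45 min, IL-10-/- minus wild type was 0.30 ± 0.25 for Mt1 (adjusted p = 0.905) and 0.10 ± 0.31 for Mt2 (adjusted p = 0.978). None of the 3 tested members passed there, where 0.389% of all probe sets did.

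Added IL-6 at 45 min, in the mean over the genotypes, changed the same 2 members, where 0.547% of all probe sets changed. Mt1 rose by 1.12 ± 0.16 (2.18-fold, adjusted p = 0.000151) and Mt2 by 1.42 ± 0.20 (2.67-fold, adjusted p = 0.000151). In this comparison 18 probe sets rose more than Mt1 and 9 more than Mt2. Within wild type both passed, where 0.219% of all probe sets did, at 1.26 ± 0.25 for Mt1 (adjusted p = 0.0228) and 1.63 ± 0.31 for Mt2 (adjusted p = 0.018). Without any 1 of the 4 wild-type arrays neither call held, with adjusted p of 0.0917 to 0.336 for Mt1 and 0.134 to 0.217 for Mt2. Within IL-10-/- the change was 0.80 ± 0.25 for Mt1 and 1.15 ± 0.31 for Mt2. Within IL-6-/- it was 1.30 ± 0.30 for Mt1 and 1.46 ± 0.38 for Mt2. None of these 4 passed, where 0.0365% of all probe sets did in IL-10-/- and 0.073% in IL-6-/-.

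The 2 cytokine arms share their LPS-alone arrays, so their changes are not independent of each other. Compared directly, IL-10 against IL-6, Mt1 was higher by 0.54 ± 0.14 (1.45-fold) and Mt2 by 0.61 ± 0.18 (1.53-fold) in the mean over genotypes. Over all probe sets neither passed, with adjusted p of 0.234 for Mt1 and 0.409 for Mt2, where 0.219% of probe sets passed. With replicate number added to the limma fit Mt1 passed (adjusted p = 0.0026) and Mt2 did not. For each gene taken alone, a two-sided exact permutation test of arms within genotypes gave p = 0.00926, the smallest that its 216 rearrangements allow (n = 6 arrays each). That test was chosen after the arms were seen not to overlap, which fixes its p, so it restates that separation. It is unadjusted, and 3 exact tests of this kind were run. The doses were 10 ng/ml for IL-10 and 2 ng/ml for IL-6, so the comparison is of these doses and not of equal ones.

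The cytokine arms at 45 min were also read through genes that rise with time in LPS. The 540 probe sets that rose between 45 and 180 min of LPS in IL-10-/- had a median change in wild type at 45 min of -0.03 with IL-10 and 0.00 with IL-6. The 557 that rose with time in wild type had medians of 0.05 with IL-10 and 0.03 with IL-6 in IL-10-/- cells. The Il6 probe set itself read 2126 to 2679 with IL-10, 795 to 1675 with IL-6 and 209 to 222.5 with LPS alone in wild type at 45 min.

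**Figure D3:**
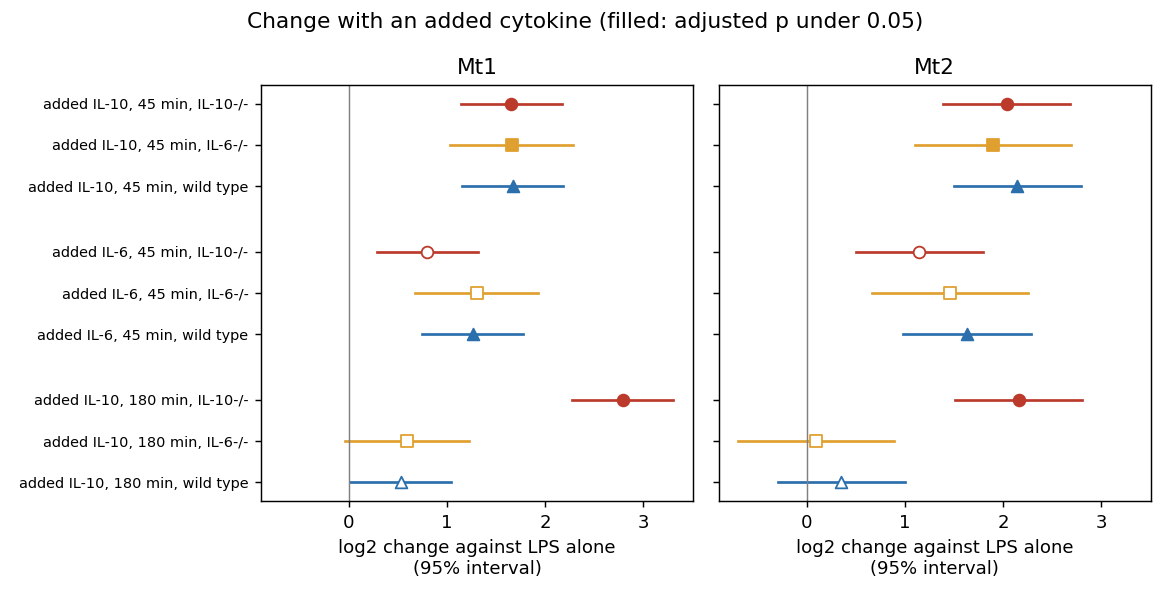
Change of Mt1 (left) and Mt2 (right) with an added cytokine against LPS alone, log2 of (signal + 50), by time and genotype; points are estimates, bars are 95% intervals, and filled points passed an adjusted p of 0.05. All 12 estimates at 45 min lie above 0, and at 180 min only the IL-10-/- estimates, 2.79 and 2.16, passed.

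At 180 min IL-10-/- cells given IL-10 read near the other genotypes, far above IL-10-/- cells with LPS alone. Mt1 read 34232 and 31816 with IL-10 against 4271 and 5237 with LPS alone in IL-10-/-. In IL-6-/- it read 34149 and 34206 with IL-10 against 22648 with LPS alone. In wild type it read 34438 and 34628 with IL-10 against 24162 and 23704 with LPS alone. The arrays with IL-10 lay above those with LPS alone in every genotype, by far the most in IL-10-/-. Such separation was found for 20% of probe sets in IL-10-/- and 16.4% in wild type. In IL-6-/- the separation rests on 1 array with LPS alone, and its share was not counted.

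Mt2 read 60128 and 54214 with IL-10 against 12368 and 13110.1 with LPS alone in IL-10-/-. In IL-6-/- it read 47944 and 65253 with IL-10 against 52189 with LPS alone. In wild type it read 59855 and 69689 with IL-10 against 43750.5 and 58262 with LPS alone. The arms overlapped in IL-6-/- and lay close together in wild type.

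In IL-10-/- cells 2 of the 3 tested members changed with IL-10, where 3.54% of all probe sets did. Mt1 rose by 2.79 ± 0.25 (6.92-fold, adjusted p = 3.9e-08) and Mt2 by 2.16 ± 0.31 (4.47-fold, adjusted p = 5.52e-05). Only 17 probe sets rose more than Mt1, and 42 more than Mt2. In IL-6-/- Mt1 differed by 0.59 ± 0.30 (adjusted p = 0.832) and Mt2 by 0.10 ± 0.38 (adjusted p = 0.998). In wild type Mt1 differed by 0.53 ± 0.25 (adjusted p = 0.764) and Mt2 by 0.36 ± 0.31 (adjusted p = 0.999). None of the 3 tested members passed in these genotypes, where 0.207% of all probe sets did in IL-6-/- and 0.134% in wild type.

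In the mean over the genotypes Mt1 rose by 1.30 ± 0.16 (adjusted p = 4.64e-06) and Mt2 by 0.87 ± 0.20 (1.83-fold, adjusted p = 0.00806), 2 of 3 where 3.82% of all probe sets passed. The response in IL-10-/- minus that in wild type was 2.26 ± 0.35 for Mt1 (adjusted p = 0.000709), which passed as 0.559% of all probe sets did. For Mt2 that difference was 1.81 ± 0.44 (adjusted p = 0.0686). With IL-10 present, IL-10-/- minus wild type was -0.07 ± 0.25 for Mt1 (95% interval -0.58 to 0.45) and -0.18 ± 0.31 for Mt2 (-0.83 to 0.47). None of the 3 tested members passed there, where 0.219% of all probe sets did.

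The change with IL-10 at 180 min minus that at 45 min was also taken. In IL-10-/- it was 1.14 ± 0.35 for Mt1 (adjusted p = 0.179) and 0.12 ± 0.44 for Mt2 (adjusted p = 0.998). In wild type it was -1.14 ± 0.35 for Mt1 (adjusted p = 0.485) and -1.79 ± 0.44 for Mt2 (adjusted p = 0.169). None of these passed, where 1.14% of all probe sets did in IL-10-/- and 0.146% in wild type. In IL-6-/-, with 1 LPS-alone array at each time, the difference between times was -1.07 for Mt1 and -1.80 for Mt2. In the mean over genotypes it was -0.36 ± 0.22 for Mt1 (adjusted p = 0.934) and -1.16 ± 0.28 for Mt2 (adjusted p = 0.0359), 1 of 3 members where 1.18% of all probe sets passed. The Mt2 call was lost without 16 of the 20 arrays taken singly (adjusted p up to 0.0833).

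Across the 6 arrays with LPS plus IL-10 at 180 min the highest Mt1 signal was 1.09 times the lowest. The same ratio was 1.36 for Mt1 with LPS plus IL-10 at 45 min, and for Mt2 it was 1.45 at 180 min and 1.27 at 45 min. The coefficient of variation of Mt1 at 180 min was 3.07%. Whether the reading was limited near the top of the scale was not tested.

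The 2 metallothionein genes did not move in a fixed proportion. The ratio of the Mt2 to the Mt1 signal, which can be read only as a change between arrays, was 0.43 to 0.69 at rest. It was 1.07 to 1.42 with LPS alone at 45 min and 1.81 to 2.90 with LPS alone at 180 min. With IL-10 it was 1.37 to 1.82 at 45 min and 1.40 to 2.01 at 180 min, and with IL-6 at 45 min it was 1.30 to 1.78. No resting array overlapped the 28 stimulated arrays, which spanned 1.07 to 2.90. How many other pairs of probe sets separate in this way was not counted. The resting arrays also differ in CSF-1 source and in stromal and lymphocyte signal, as given above. The 2 transcripts are close relatives, and how far each probe set also reads the other was not tested.

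Ordered by level, the 3 groups with LPS plus IL-10 at 180 min came first for both genes. For Mt1 the next were IL-6-/- and wild type with LPS alone at 180 min, then the 3 IL-10 groups and the 3 IL-6 groups at 45 min. The lowest Mt1 group was IL-10-/- with LPS alone at 180 min, which overlapped wild type with LPS alone at 45 min. Neighbours that overlapped in the Mt1 order also included IL-6-/- and wild type with IL-6, and wild type and IL-10-/- with IL-6, at 45 min. For Mt2 all 3 top groups overlapped their neighbours, and resting cells were lowest.

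Mtf1 did not change past the threshold in any of the 40 comparisons computed. limma called 0 of them, 0 had an unadjusted p under 0.05, and the lowest adjusted p was 0.356. On the resting arrays it read 227, 224, 204 and 86.6. In wild type with LPS alone it read 309.6 and 69.2 at 180 min and 478 and 70.2 at 45 min. The wild-type replicates thus differed by more than the means of these groups did. In IL-10-/- with LPS alone Mtf1 read 213.0 and 352.9 at 180 min and 120.7 and 160.4 at 45 min, without overlap, as 31.8% of probe sets did in that direction. That change was 0.78 ± 0.54 and did not pass (adjusted p = 0.356).

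With IL-10 at 180 min Mtf1 read 333 and 257 in IL-10-/-, 313 and 353 in IL-6-/- and 235 and 277.5 in wild type. These 6 arrays were within the range of LPS alone at that time, 69.2 to 353. Added IL-10 at 180 min gave 0.20 ± 0.33 in the mean over genotypes (95% interval -0.49 to 0.89). At 45 min added IL-10 gave -0.11 ± 0.33 (-0.80 to 0.58) and added IL-6 -0.08 ± 0.33 (-0.77 to 0.61). These means join values of opposite sign. In IL-10-/-, IL-6-/- and wild type they were 0.36, -0.46 and -0.25 with IL-10 and 0.78, -0.66 and -0.37 with IL-6. LPS against resting gave 0.15 ± 0.46 at 45 min and -0.13 ± 0.46 at 180 min, and IL-10-/- against wild type with LPS alone at 180 min gave 0.65 ± 0.54. The interval of each of these changes includes 0.

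Slc30a1, whose product moves zinc out of the cytosol, was dim, with at least 5832 of 12422 probe sets reading higher on every grouped array. At 180 min it spanned 39.7 to 117 on 11 arrays with a median of 63.4. At 45 min, over the 11 arrays with LPS plus IL-10 or LPS alone, it spanned 96.5 to 209 with a median of 135. The time groups overlapped only between 96.5 and 117. With IL-6 at 45 min it spanned 124 to 197, and resting arrays, at 78.7 to 181, overlapped both times.

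Matched by genotype and arm, the mean at 180 min against 45 min differed by -0.67 on the log2 scale. A two-sided exact permutation test within genotype and arm gave p = 0.000643 over 15552 rearrangements, where the smallest possible was 0.000129. That test was chosen after the values were seen, is unadjusted and rests on signals of which all but 1 were under 200. Across all probe sets without the filter, limma called Slc30a1 in 0 of 40 comparisons, with 0 at an unadjusted p under 0.05 and a lowest adjusted p of 0.295.

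From that fit, LPS at 180 min against 45 min gave -0.26 in IL-10-/-, -0.84 in IL-6-/- and -0.68 in wild type. LPS against resting gave 0.24 at 45 min and -0.44 at 180 min in wild type. The mean change with added IL-10 was 0.01 at 45 min and -0.14 at 180 min, and with added IL-6 at 45 min it was 0.15. These cytokine means are small beside those of Mt1 and Mt2, but they join unlike values. With IL-6 at 45 min Slc30a1 changed by 0.55 in IL-10-/-, -0.09 in IL-6-/- and -0.02 in wild type. In IL-10-/- it read 174.6 and 163.4 with IL-6 against 96.5 and 102.6 with LPS alone, without overlap. The ratio of these group means was 1.698, beside 1.746 for Mt1 and 2.234 for Mt2. The Slc30a1 change did not pass, and these signals were all under 200.

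**Figure D4:**
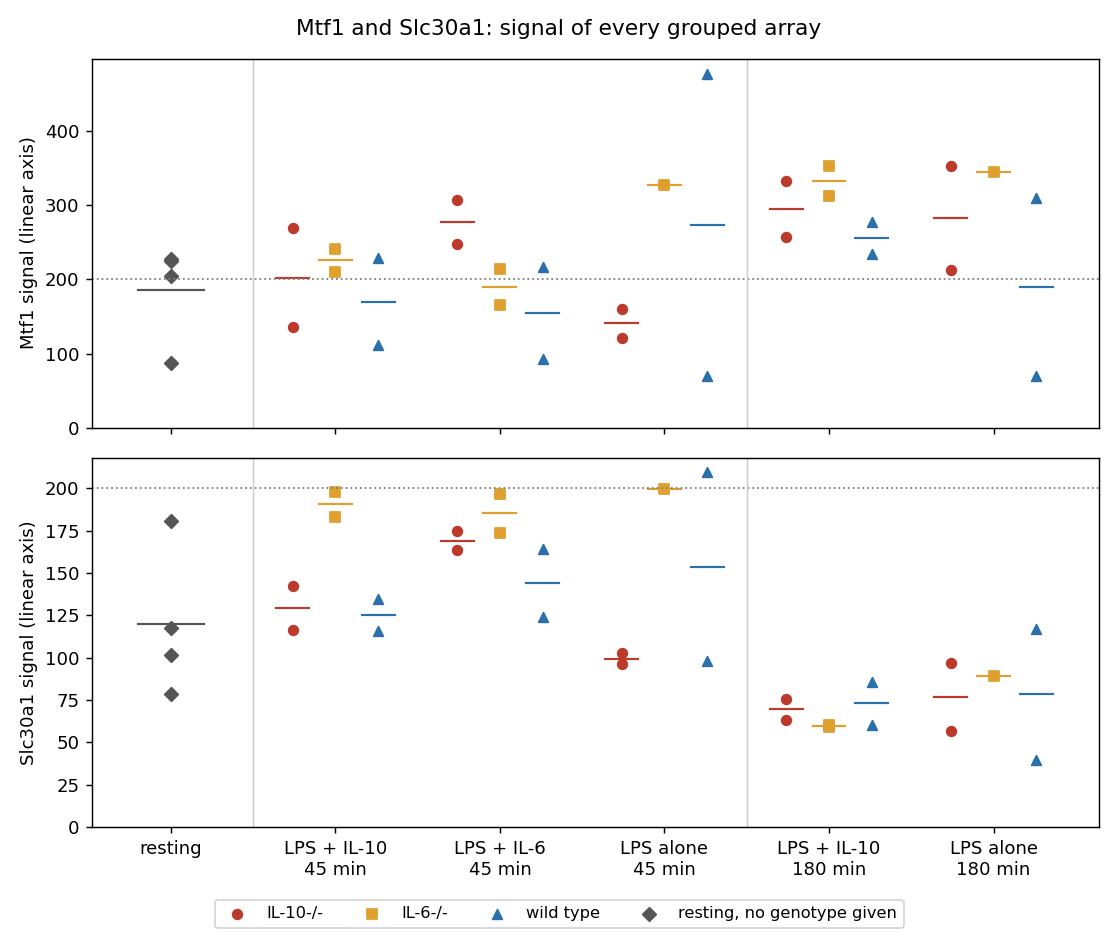
Signal of Mtf1 (upper) and Slc30a1 (lower) on each grouped array, on a linear axis from 0, laid out by treatment, time and genotype; points are arrays, short lines group means, and the dotted line the signal of 200 used as filter. Mtf1 scatters between 69.2 and 478, with wild-type replicates under LPS alone far apart, and Slc30a1 reads 39.7 to 117 at 180 min.

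Other genes of zinc handling were taken from lists by function. Of the other metallothioneins, Mt3 read 629 to 1579 and was called in none of the comparisons below, and Mt4 (8 to 179) did not pass the filter. Of 10 zinc exporters of the SLC30 family, Slc30a1 included, 5 were on the array and 4 were tested. Of 14 zinc importers of the SLC39 family 7 were on the array and all were tested. Of 5 other genes known as MTF1 targets 4 were on the array and 3 were tested, Gclc, Ndrg1 and Csrp1.

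None of these 14 exporters, importers and other targets was called with added IL-10 (1.03% of all probe sets) or IL-6 (0.547%) at 45 min in the mean over genotypes. None was called with IL-10 at 180 min in that mean (3.82%) or in IL-10-/- (3.54%), or in IL-10-/- against wild type with LPS alone at 180 min (2.87%). At such shares a count of 0 in 14 genes says little about them. Their list medians with IL-10 at 45 min were 0.04 for exporters, -0.01 for importers and 0.04 for other targets, beside -0.01 over all probe sets. With IL-6 at 45 min the medians of exporters, importers and other targets were 0.01, -0.01 and 0.13, beside -0.02 over all probe sets. With IL-10 at 180 min in IL-10-/-, where Mt1 rose 6.92-fold, they were -0.07, 0.12 and 0.28, beside -0.03. The lists are short, and no test compared them with Mt1 and Mt2.

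Against resting cells, wild type with LPS alone had 3 of the 14 called at 45 min, where 16.7% of all probe sets were, and 5 of the 14 at 180 min, where 33.8% were, so both counts lie near the background. At 45 min 2 of 4 exporters and 1 of 7 importers were higher, and no other target was called. Slc30a4 rose by 1.21 ± 0.22 (adjusted p = 0.000302), Slc30a3 by 0.74 ± 0.20 (0.0122) and Slc39a6 by 1.02 ± 0.27 (0.00955). At 180 min 1 exporter, 2 importers and 1 other target were higher and 1 importer was lower. Slc30a4 rose by 1.94 ± 0.22 (adjusted p = 1.3e-07), Slc39a4 by 1.12 ± 0.26 (0.00133), Slc39a6 by 1.16 ± 0.27 (0.00127) and Ndrg1 by 1.17 ± 0.27 (0.00173), while Slc39a3 fell by 1.51 ± 0.39 (0.00397). SLC39A6 and SLC39A4 bring zinc into the cytosol, and SLC30A4 moves it into vesicles. Between 180 and 45 min of LPS in wild type, Ndrg1 rose by 0.95 (adjusted p = 0.047) and Slc30a3 fell by 0.72 (adjusted p = 0.0341), and no importer was called, making 2 of the 14 where 13.9% of all probe sets were called.

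**Figure D5:**
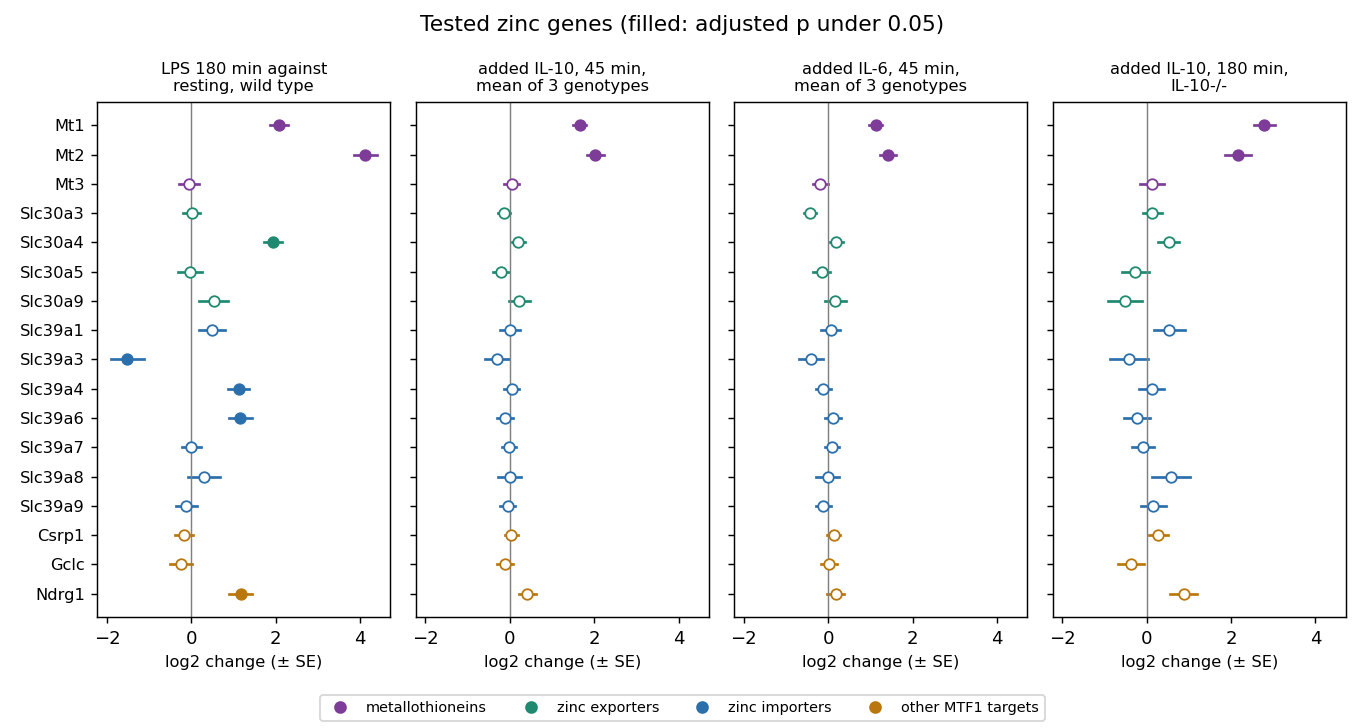
Log2 change ± SE of the 17 tested metallothionein, zinc exporter, zinc importer and other MTF1 target genes in 4 comparisons; filled points passed an adjusted p of 0.05. Mt1 and Mt2 passed in all 4, while 1 exporter, 3 importers and Ndrg1 passed against resting cells and no gene but Mt1 and Mt2 passed in the other comparisons.

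A list of 15 genes known to act with or downstream of STAT3, all tested, gave 6 higher, 0 lower and 9 not passing with IL-10 at 45 min (median 0.52), where 1.03% of all probe sets passed. With IL-6 at 45 min 5 were higher and 10 did not pass (median 0.40), where 0.547% of all probe sets passed. With IL-10 at 180 min 10 were higher in IL-10-/-, where 3.54% of all probe sets passed. With LPS alone at 180 min 9 were lower in IL-10-/- than in wild type, where 2.87% passed. Il1rn, the interleukin 1 receptor antagonist, rose at 45 min by 1.99 (IL-10) and 1.03 (IL-6). Il4ra, an interleukin 4 receptor chain, rose by 1.78 (IL-10) and 1.48 (IL-6), and Socs3, a feedback inhibitor of cytokine signalling, by 1.24 (IL-10) and 0.89 (IL-6). This list was drawn up with results of these arrays known and is no independent evidence.

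Over the 16 group means, the genes whose pattern was most like that of Mt1 were Il4ra (Pearson's r = 0.98), Selp (0.97), Tha1 (0.96) and Sphk1 (0.96). Those most like Mt2 were Zfp281 (0.96), Eif1a (0.96), Map3k8 (0.96) and Il1rn (0.95). Mt1 and Mt2 had r = 0.93 with each other, and 0.96 over the 15 groups without resting cells. The r of Mtf1 was 0.22 with Mt1 and 0.29 with Mt2, and that of Slc30a1 was -0.42 with Mt1 and -0.45 with Mt2. The dim members gave Mtmr1 (0.83) for Mtf1 and Zfp362 (0.94) for Slc30a1 as most alike. Group means share arrays and scaling, and the best of so many genes is always high, so these values are descriptions.

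On chromosome 8 the RefSeq order around the pair is Nudt21, Ogfod1, Bbs2, Mt4, Mt3, Mt2, Mt1, Nup93, Slc12a3 and Herpud1. Mt3, Nup93, Nudt21 and Herpud1 were tested. None was called with IL-10 or IL-6 at 45 min or with IL-10 at 180 min, with changes from -0.53 (Herpud1, IL-10 at 45 min) to 0.47 (Herpud1, IL-10 at 180 min, mean over genotypes). In the mean over genotypes 1.03% (IL-10 at 45 min), 0.547% (IL-6 at 45 min) and 3.82% (IL-10 at 180 min) of all probe sets were called. At such shares the lack of a call among so few neighbours says little about them.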

How the data were processed

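Total RNA was hybridised, as biotin-labelled cRNA, to Affymetrix MG-U74Av2 arrays, per the labels' protocols. The authors deposited 1 linear intensity per probe set and array, made with MAS5, per the submitters' processing notes. The trimmed mean (2% at each end) was 500.29 to 500.4 on the 34 arrays, so arrays had been scaled to a common target. The number of arrays limits the precision.

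Groups came from the array titles, and 2 arrays with unclear labels entered none. Of 12422 probe sets without controls, 10855 had 1 gene symbol, 396 had several and were not named, and the rest had none listed. log2(signal + 50), with the deposited signals as input, was fitted with limma 3.58.1 in R 4.3.3 over 16 groups of 32 arrays, with a trended prior. Probe sets at 200 or more on at least 2 arrays were tested, and p-values were adjusted over all of them in each comparison. The fit was tested on simulated data with independent noise on each array. That test does not cover the correlated deviations of replicates given in the closing section.

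The genes named are the members, the lists by function, the 4 genes most alike each member and the neighbours of Mt1. Members and lists were chosen with earlier results of these data known. The genotype differences in the time change and in the IL-10 change at 45 min, the exact permutation tests and the reading of time-dependent genes at 45 min were added after values were seen. Same-numbered replicates were not treated as pairs, and some results that did not pass did so with replicate number added to the fit. Alternatives are given in the closing section. The genome build and aligner do not apply to these arrays, and promoter sequences and gene order are RefSeq's.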

Additional observations from a re-analysis of the deposited data

Results flagged for a closer look

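The response of Mt1 to IL-10 at 180 min differed between genotypes, by 2.26 on the log2 scale in IL-10-/- minus wild type (adjusted p = 0.000709, limma). For Mt2 the response to IL-10 differed between times, by -1.16 at 180 min minus 45 min in the mean over genotypes (adjusted p = 0.0359). That mean joins 0.12 in IL-10-/-, -1.80 in IL-6-/- and -1.79 in wild type. The call was lost without 16 of the 20 arrays taken singly, and also without the filter or the trend. The change from 45 to 180 min of LPS differed between genotypes, by -2.64 for Mt1 and -2.19 for Mt2 in IL-10-/- minus wild type. Both genotype differences, in the IL-10 response and in the time change, use the same LPS-alone arrays at 180 min. They are therefore not separate findings.

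Among the 4 resting arrays, the lowest Mtf1 signal, 86.6, stood apart from the others, with a gap of 0.837 of the range against a critical value of 0.829. Chance flags about 1 in 20 groups.

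The 2 arrays that entered no group read above the highest resting array in several members. The array whose title gives no genotype and the array whose title and protocol differ on the time are given without a condition, as array 1 and array 2. Mt1 read 23394.5 on array 2, above 7769 at rest, and 7103 on array 1, below it. Mt2 read 7187 on array 1 and 50945.4 on array 2, above 5335 at rest. Mtf1 read 302.8 on array 2, above 227 at rest, and Slc30a1 read 203.0 on array 1, above 180.6 at rest.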

How the results depend on the processing

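Results were recomputed with pseudocounts of 10 and 200, no filter, a filter at 500, quantile normalization, no trend, a replicate block, the groups of the comparison alone, the mean over IL-10-/- and wild type, and without each array. Averaging all probe sets of a gene gave nothing to compare, since each member has 1. Of the values so obtained, 392 kept direction and side of the threshold for Mt1, 364 for Mt2 and 78 for Mtf1. For Mt1 9 lost the call, 8 gained it and 7 turned sign, and for Mt2 these were 34, 8 and 10, while 13 turned sign for Mtf1. Mtf1 has no value with the filter at 500, and Slc30a1, which passed neither filter, was recomputed on all probe sets, where 90 values stayed within 1 SD and 10 moved. The cause of the changes below was not tested.

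With a pseudocount of 200 Slc30a1 at 180 against 45 min of LPS gave -0.34 in wild type and -0.47 in IL-6-/-, and the IL-10 response of Mt2 at 180 min in IL-10-/- minus wild type passed (1.79, adjusted p = 0.0351). Without the filter the Mt2 response at 180 minus 45 min did not (-1.16, 0.0627), nor without the trend (-1.16, 0.0791). Without the trend Mt2 with IL-10 at 45 min in IL-6-/- (1.90, 0.0741) and, with IL-6 in wild type, Mt1 (1.26, 0.0687) and Mt2 (1.63, 0.0606) lost their calls. Quantile normalization also took the IL-6 calls in wild type (Mt1 1.06, 0.224, and Mt2 1.54, 0.0588) and the Mt2 difference in time change (-1.89, 0.0507). It turned small values to -0.10 for Mt2 in IL-6-/- against wild type with LPS at 180 min, to -0.10 for Mt2 at 180 minus 45 min in IL-10-/-, and to 0.12 (Mt1) and 0.15 (Mt2) for the IL-10 change at 45 min in IL-10-/- minus wild type. Averaged over the IL-10-/- and wild-type changes alone, Mtf1 at 45 min gave 0.056 (IL-10) and 0.21 (IL-6), and Mt2 at 180 minus 45 min gave -0.84 (0.427).

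Fitted with the groups of the comparison alone, Mt2 at 45 min of LPS against resting (1.23, 0.0967) and Mt1 with IL-6 in wild type (1.26, 0.106) lost their calls. Gained there were Mt2 with time in IL-10-/- (0.70, 0.0168), IL-10 against IL-6 for Mt1 (0.54, 0.0124) and Mt2 (0.61, 0.0145), Mt2 for IL-10 at 180 min in IL-10-/- minus wild type (1.81, 0.00796), Mt2 at 180 minus 45 min in wild type (-1.79, 0.0397) and Mt1 likewise in IL-10-/- (1.14, 0.0105).

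Replicate numbers were not taken as pairs, since no label says what they share. Even so, the correlation of deviations was above 0 in all 23 pairs of groups (0.02 to 0.44) and exceeded 0.1 in 13. With the numbers as a replicate block, calls rose in 36 of 40 comparisons, in 32 by more than 1.5 times, and fell in 0. Calls with IL-10 at 180 min over genotypes numbered 509 against 314, and IL-10 against IL-6 41 against 18. Several results that did not pass in the main fit thus depend on leaving the block out. The block gave calls for time in IL-10-/- (Mt1 -0.46, 0.0331, and Mt2 0.70, 0.0477), Mt1 with IL-6 in IL-10-/- (0.80, 0.028) and IL-6-/- (1.28, 0.0015), IL-10 against IL-6 for Mt1 (0.54, 0.0026), Mt2 for IL-10 at 180 min in IL-10-/- minus wild type (1.81, 0.00964), and 180 minus 45 min for Mt1 in IL-10-/- (1.14, 0.0035) and for Mt1 (-1.14, 0.00936) and Mt2 (-1.79, 0.0139) in wild type. It turned Mtf1 at 45 min of LPS to -0.13 and Mt2 in IL-6-/- against wild type at 180 min to -0.005.

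Some calls were lost without 1 array, the ranges being over all arrays left out in turn, for Mt1 (1.07 to 1.46) and Mt2 (1.51 to 1.76) with IL-6 in wild type, for Mt1 (1.62 to 1.69) and Mt2 (1.82 to 1.98) with IL-10 at 45 min in IL-6-/-, and for Mt2 at 180 minus 45 min over genotypes (-1.23 to -1.08). Signs turned for Mt1 at 45 min of LPS (-0.37 to 0.041), Mt2 in IL-6-/- against wild type at 180 min (-0.16 to 0.25), Mt2 with IL-10 at 180 min in IL-6-/- (-0.12 to 0.32), Mt2 at 180 minus 45 min in IL-10-/- (-0.070 to 0.31), Mt2 in IL-10-/- against wild type with IL-10 at 45 min (-0.010 to 0.20), and the IL-10 change at 45 min in IL-10-/- minus wild type for Mt1 (-0.10 to 0.071) and Mt2 (-0.30 to 0.083). The Slc30a1 values in wild type were -0.16 to 0.65 and -0.89 to 0.011 for LPS at 45 and 180 min against resting and -1.13 to -0.23 between these times. For Mtf1 they were -0.92 to 1.22 and -0.93 to 0.67 for LPS at 45 and 180 min, -0.47 to 0.24 (IL-10) and -0.44 to 0.27 (IL-6) for the added cytokine at 45 min, -0.070 to 0.46 for IL-10 at 180 min, and -0.14 to 1.45 for IL-10-/- against wild type at 180 min.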

Other observations

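Copper handling was read through 9 tested genes of 13 listed, of which 1 was called with IL-10 at 180 min over genotypes, where 3.82% of all probe sets were. This was Cp, which encodes ceruloplasmin, the copper-carrying ferroxidase. Cp rose by 3.44 ± 0.37 in IL-10-/- (adjusted p = 9.3e-07) and was lower by -2.85 ± 0.37 in IL-10-/- than in wild type with LPS alone at 180 min (adjusted p = 2.3e-05). At 45 min it changed by 0.17 with IL-10 and 0.04 with IL-6, and neither passed. Of 2 tested extracellular zinc binders, S100a8, a subunit of calprotectin, rose by 1.91 ± 0.27 with IL-10 at 180 min over genotypes (adjusted p = 4.04e-05) and gave -0.09 with IL-10 at 45 min.

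Target lists of other known inducers of metallothionein genes are given beside the share of all probe sets called at 45 min, 1.03% with IL-10 and 0.547% with IL-6. Of 12 tested genes linked to NRF2, the regulator of antioxidant genes, 1 was lower and none higher with IL-10 at 45 min, and none was called with IL-6. The one was Sqstm1, which fell by 0.44 (adjusted p = 0.0157). Of 8 glucocorticoid-responsive genes, 1 was higher and 1 lower in each arm at 45 min. Errfi1 rose by 0.72 with IL-10 and 0.74 with IL-6, and Sgk1 fell by 1.44 with IL-10 and by 0.57 with IL-6. At such shares a count of 0 or 1 in the NRF2 list says little about it. Both lists are short and were chosen with earlier results known. The part of these inducers in the metallothionein changes was not tested.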
